A study of Mus musculus with 16 samples.

Results

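The keratins described here are 10 genes: Krt7, Krt8, Krt18, Krt19, Krt20, Krt23, Krt36, Krt80, Krt4 and Krt17. They were given as a list of names, chosen with earlier results of these data known. Their counts and medians beside all genes below are therefore description only. For each of the 10 genes the estimated read counts of all its transcripts were added up in each of 16 RNA libraries of mouse colon organoids. They are 10 of the 54123 genes summed in the same way, and 44 other genes with a keratin symbol were used for comparison. Of the 10 genes, 9 passed the filter on low counts and were tested. Krt17, a keratin of stressed and appendage epithelium, did not pass, with 5 reads in all libraries together, 4 of them in a single library.

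Keratins form the intermediate filaments of epithelial cells. A filament is built from pairs of a type I chain and a type II chain, so that an epithelium has to make both types. Simple epithelia such as the gut lining use the type II keratins Krt8 and Krt7 with the type I keratins Krt18, Krt19 and Krt20, and Krt20 marks the differentiated cells at the top of the crypt. Krt4 is a type II keratin of stratified, non-cornifying epithelium such as that of the oesophagus, Krt80 is a widespread type II keratin, Krt23 is a type I keratin of simple epithelia, and Krt36 is a type I keratin of the hair family.

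Organoids had been grown from 2 female mice aged 8 weeks, taking 1.0 cm of colon at its proximal end and 1.0 cm at the end of the descending part. The mice carried a single copy each of a tdTomato reporter and of a Cre-inducible allele, and no Cre step is described for these libraries. Each region was transduced with lentiviral Cas9 and either Scramble-sgRNA, the control, or Cdx2-sgRNA, which targets the intestinal homeobox transcription factor Cdx2. Cdx2-sgRNA organoids were grown from single clones with a frameshift in both alleles, whereas no cloning step is described for Scramble-sgRNA organoids, so clone and guide cannot be told apart. After 4 months in culture they were kept in WENR-plus medium for 2 days and then for 3 days either in WENR-plus or in WENR-minus, the same medium without Wnt3a, EGF, Noggin and R-spondin 1. This gave 8 groups of 2 libraries (n = 2 in each group throughout). The replicates are biological, but with 2 per group every SD rests on 2 values.

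Libraries held 12465194 to 18922143 counts, with a median of 16836530, and mitochondrial ribosomal RNA took 15.4 to 28.0% of them. CPM is used below for counts relative to the scaled library size, and it compares 1 gene between libraries. TPM is corrected for transcript length, and it compares genes with each other. Cdx2 RNA was read first as the check of the guide. It lay at 142 and 127 CPM in proximal Scramble-sgRNA organoids in WENR-plus and at 29.9 and 33.3 CPM in their Cdx2-sgRNA counterparts, and in the growth factor-free medium at 203 and 151 against 73.9 and 71.0 CPM. In distal organoids it lay at 76.8 and 67.9 against 62.3 and 50.2 CPM in WENR-plus, and at 112 and 110 against 126 and 86.1 CPM in WENR-minus, where the log2 difference was −0.07 (SE 0.20). A frameshift need not lower the RNA, so the RNA level does not check the distal label.

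The epithelial markers Epcam, Cdh1, Vil1, Lgals4 and Cldn7 were found in all libraries, with a summed level of 1531 to 11618 CPM. That sum was lowest in proximal Cdx2-sgRNA organoids, at 1531 and 1885 CPM in WENR-plus and 3054 and 3116 CPM in WENR-minus, beside at least 2980 CPM in WENR-plus and 8020 CPM in WENR-minus in every other group. The collagen genes Col1a1, Col1a2 and Col3a1, the muscle genes Myh11, Actg2 and Des, and the lymphocyte genes Cd3e and Cd79a had at most 7 reads in any library. So did Dcn of the fibroblast list, with no read, and Cdh5 of the endothelial list. The remaining markers reached more, with 188 reads for the macrophage gene Cd68, 12 for Ptprc, 175 for Vim, 18 for Pdgfra and, for the endothelial gene Pecam1, 26. The 4 immune markers summed to 6.38 and 10.2 CPM in proximal Cdx2-sgRNA organoids in WENR-minus and to 4.44 and 5.92 CPM in WENR-plus, beside at most 1.60 CPM in any Scramble-sgRNA library and 2.88 CPM in any distal Cdx2-sgRNA library. Cd68 alone reached 9.94 CPM in proximal Cdx2-sgRNA organoids in WENR-minus, while Ptprc stayed at or below 0.891 CPM in every library. The 9 markers of squamous epithelium summed to 67.7 and 125 CPM in proximal Cdx2-sgRNA organoids in WENR-minus, to 19.8 and 21.5 CPM in distal Cdx2-sgRNA organoids in WENR-minus, and to at most 6.79 CPM elsewhere. Of these, the basal markers Trp63 and Krt5 stayed at no more than 3 and 10 reads per library. Krt14, also a basal marker, reached 775 reads, and Ivl, a protein of the cornified envelope, reached 2106 reads, both in proximal Cdx2-sgRNA organoids in WENR-minus. Whether such cells were present, and their part in the results below, was not tested. In bulk RNA, more cells of a type and more RNA per cell cannot be told apart.

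The 10 genes lie in both keratin clusters of the mouse genome (GRCm38, GENCODE annotation). Krt80 (chr15:101347444-101370162), Krt7 (chr15:101411043-101430313), Krt4 (chr15:101918535-101924735), Krt8 (chr15:101996698-102004482) and Krt18 (chr15:102028180-102032027) lie in the cluster on chromosome 15, which holds 27 of the 54 keratin genes. Krt20 (chr11:99428403-99438150), Krt23 (chr11:99477974-99493137), Krt36 (chr11:100102007-100105626), Krt19 (chr11:100140810-100148665) and Krt17 (chr11:100256217-100261029) lie in the cluster on chromosome 11, with the other 27. Krt8 and Krt18, the pair that simple epithelia use, are neighbours with 23697 bases between them and are read from opposite strands. Krt18 is thereby the only type I gene of the 10 that lies among the type II genes on chromosome 15.

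Part of the reads of Krt7 and Krt19 was given to transcripts that do not code for the protein. The retained-intron transcript Krt7-202 took 19.4 to 56.0% of the Krt7 reads in a library. The share was 52.2 to 56.0% in proximal Cdx2-sgRNA organoids in WENR-plus and 19.4 to 35.1% in distal Scramble-sgRNA organoids in WENR-minus, the groups with the highest and the lowest shares. The protein-coding transcript of Krt19 took 52.3 to 61.1% of its reads. Krt8 shares a stretch of 941 bases at 98.6% identity with the pseudogene Krt8-ps, to which at most 35 reads of a library were given. Krt7, Krt8 and Krt80 overlap non-coding genes on the other strand, which held at most 70 reads in any library.

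Krt20 is the member whose RNA moved furthest with the medium, and its promoter is shown for that reason. RefSeq promoter windows (GRCm38.p6) were at hand for 6 of the 10 members, namely Krt7, Krt8, Krt18, Krt20, Krt23 and Krt36. The 250 bases before the start of Krt20 (chr11:99438154-99438403, minus strand) are printed 5′ to 3′, with capitals marking the letters TTTAT, the core of sites that caudal homeobox proteins such as Cdx2 bind, and TATAAA, the TATA box.
Krt20: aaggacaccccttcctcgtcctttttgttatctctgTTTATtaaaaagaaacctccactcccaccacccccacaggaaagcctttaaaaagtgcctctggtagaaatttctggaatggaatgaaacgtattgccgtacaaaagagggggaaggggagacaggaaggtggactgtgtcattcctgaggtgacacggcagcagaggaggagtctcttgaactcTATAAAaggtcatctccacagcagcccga

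On either strand, TTTAT stood in the windows of Krt20, Krt7 and Krt23, and in 37.3% of all 32851 promoter windows of this length. In Krt20 it lay 214 to 210 bases before the start and again, on the other strand, 28 to 24 bases before it, where it overlaps the TATA box. TATAAA was found in the window of Krt20 alone among these 6, and in 12.4% of all windows. These are matches of letters, and binding was not measured in these libraries.

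Keratin RNA was abundant in every group and more so without the growth factors. The TPM of the 10 genes together rose from 4104 ± 99.0 (SD, n = 2) in WENR-plus to 12974 ± 1047 in WENR-minus in proximal Scramble-sgRNA organoids, and from 5442 ± 1040 to 18738 ± 2125 in proximal Cdx2-sgRNA organoids. In distal organoids it went from 3458 ± 132 to 8721 ± 686 with Scramble-sgRNA and from 4174 ± 51.6 to 11299 ± 358 with Cdx2-sgRNA. All 8 libraries in WENR-minus lay above all 8 in WENR-plus, the lowest of the former at 8236 and the highest of the latter at 6178 TPM. In each region and medium both Cdx2-sgRNA libraries lay above both Scramble-sgRNA libraries. A sum over chosen genes was given no test.

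The make-up of this RNA also differed between groups. Krt19 was the largest component in every group, with a mean of 48.0 to 60.2% of the summed TPM. Counting only protein-coding transcripts, Krt8 was the largest in both Scramble-sgRNA lines, with means of 41.3 to 48.1%, beside 26.9 to 28.5% for Krt19, and in distal Cdx2-sgRNA organoids, with 38.4 and 45.6% beside 32.8 and 29.6% for Krt19 in WENR-plus and WENR-minus. In proximal Cdx2-sgRNA organoids Krt19 stayed the largest, with 33.9 and 38.5% beside 20.7 and 23.4% for Krt8. Over all transcripts, Krt8 made up 28.8 ± 0.424% and 31.1 ± 2.26% in proximal Scramble-sgRNA organoids in WENR-plus and WENR-minus, but 12.8 ± 3.18% and 14.4 ± 0.283% in proximal Cdx2-sgRNA organoids. There Krt7 took 12.4 ± 3.90% and 7.95 ± 0.990%, and Krt4 took 4.25 ± 1.56% and 6.32 ± 0.120%, whereas the mean of Krt4 was at most 1.22% in the other 6 groups. Krt20 rose from a mean of at most 0.734% in WENR-plus to 8.52 ± 1.61% and 9.49 ± 2.84% in WENR-minus in both distal lines.

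The ratio of type I to type II RNA was higher with Cdx2-sgRNA when all transcripts were counted. It lay between 1.81 and 2.11 in the 8 Scramble-sgRNA libraries and between 2.18 and 2.59 in the 8 Cdx2-sgRNA libraries, and these ranges do not overlap. Counting only protein-coding transcripts, the ranges were 0.953 to 1.16 and 1.01 to 1.39, and they overlap. With these transcripts the proximal Cdx2-sgRNA libraries, at 1.22 to 1.39, still lay above all other libraries. The ratio of Krt8 to its partner Krt18 changed with the medium: it went from 1.84 ± 0.0420 to 3.52 ± 0.00109 in proximal Scramble-sgRNA organoids and from 1.69 ± 0.315 to 5.87 ± 0.829 in distal Scramble-sgRNA organoids. In Cdx2-sgRNA organoids it went from 1.05 ± 0.334 to 2.45 ± 0.0239 in proximal and from 1.95 ± 0.118 to 7.94 ± 2.37 in distal cultures. The ratio of Krt7 to Krt8 was 1.03 ± 0.560 in proximal Cdx2-sgRNA organoids in WENR-plus and at most 0.194 on average in the other 3 WENR-plus groups.

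**Figure D1:**
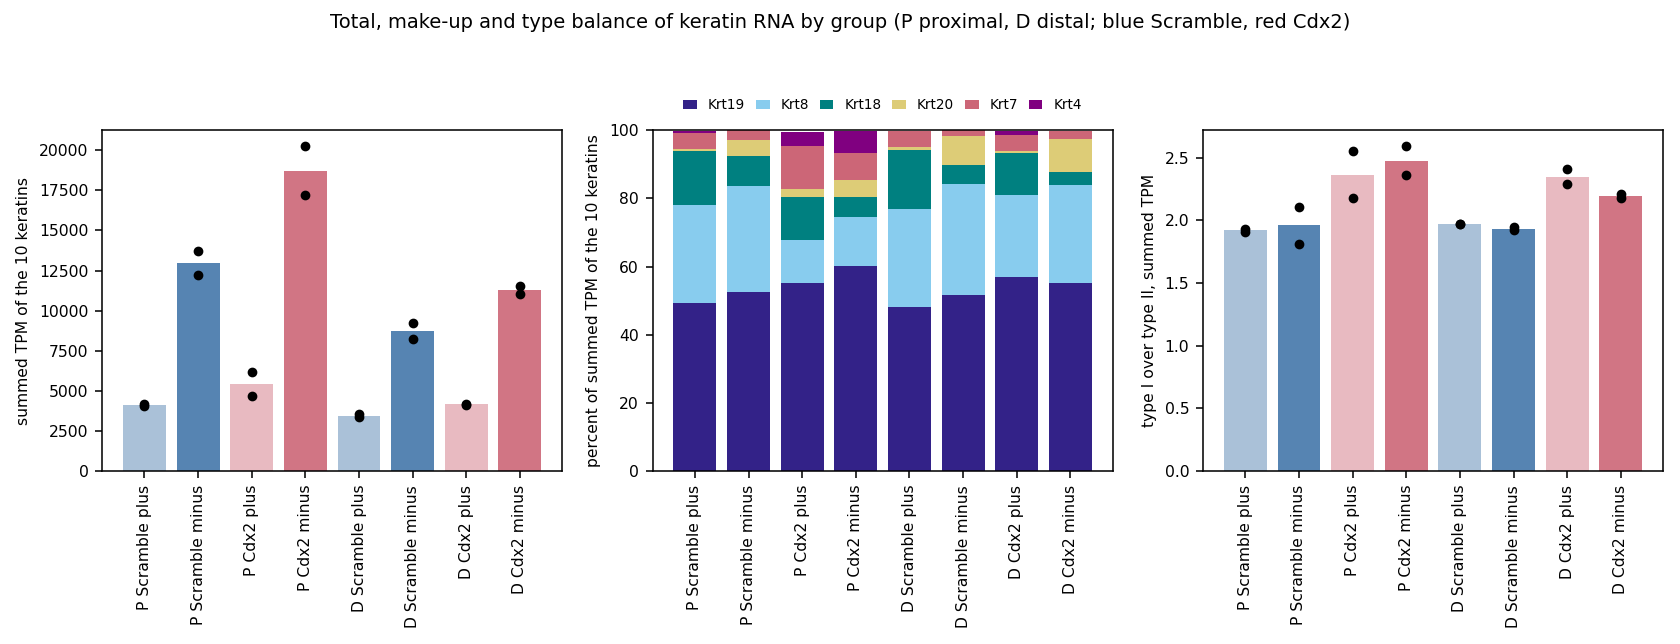
Summed TPM of the 10 keratins (left), the share of each of 6 genes in that sum (middle, means of 2 libraries) and the ratio of type I to type II TPM (right), for each of 8 groups. Bars are means of 2 libraries and points are libraries. WENR-minus bars stand above WENR-plus bars on the left, from 8721 to 18738 against 3458 to 5442 TPM. All transcripts are counted, and Cdx2-sgRNA points lie above Scramble-sgRNA points on the right, whereas with protein-coding transcripts only the ranges overlap.

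Withdrawal of the growth factors was compared in each line separately. Krt8, Krt19 and Krt20 rose in all 4 lines, Krt7 in 3 of them, Krt18 in proximal Scramble-sgRNA, Krt4 in proximal Cdx2-sgRNA and Krt36 in distal Cdx2-sgRNA organoids. To be called, a gene needed a Benjamini-Hochberg (BH) adjusted p below 0.05 and a log2 fold change beyond 1 in either direction. By this rule 5 of the 10 members rose in proximal Scramble-sgRNA organoids, where 17% of all tested genes were called in either direction, and 5 rose in proximal Cdx2-sgRNA organoids, with 6.4% of all genes called. In distal Scramble-sgRNA organoids 3 rose, with 26.4% of all genes called, and in distal Cdx2-sgRNA organoids 5 rose, with 33.1% of all genes called. No member was called lower in this fit, whereas with the culture as a block Krt4 was called lower in both Scramble-sgRNA lines. The median log2 fold change of the 9 tested members was 1.06, 1.81, 0.26 and 1.64 in these lines, beside −0.06, −0.03, −0.11 and −0.10 over all genes. With Krt36 at its lower bound the median of 1.81 in proximal Cdx2-sgRNA organoids was 1.74. Since the members were chosen with earlier results known, these counts and medians only describe them.

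The calls in proximal Cdx2-sgRNA organoids depended on the fit. When only the 4 libraries of that comparison were fitted, no member and no gene at all was called. Both media of a replicate come from the same culture, and with the culture as a block 8 members were called there, with Krt23, Krt36 and Krt80 added to the 5, while the genes called among all tested went from 978 to 1546.

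Cdx2-sgRNA was compared with Scramble-sgRNA in each region and medium. In proximal organoids Krt7, Krt80 and Krt4 were higher with Cdx2-sgRNA in both media, and Krt20 was higher in WENR-plus. This made 3 of the 10 members in WENR-minus, with 21.2% of all genes called, and 4 in WENR-plus, with 15.9% of all genes called. In distal organoids Krt7 and Krt4 were higher in WENR-minus, 2 of 10 members with 5.25% of all genes called. In distal organoids in WENR-plus edgeR called 0 members and 0.262% of all genes, while Krt19 and Krt4 had an unadjusted p under 0.05 and DESeq2 called 1 member, Krt4. The median log2 fold change of the 9 tested members was 1.72, 0.73, 0.94 and 0.22 in these comparisons, in the order given, beside 0.00, −0.05, 0.00 and −0.01 over all genes.

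Between the regions, edgeR called 0 members in Scramble-sgRNA organoids in either medium, with 6.08% of all genes called in WENR-minus and 1.75% in WENR-plus. There, 3 members in WENR-minus (Krt7, Krt18 and Krt4) and 1 in WENR-plus (Krt4) had an unadjusted p under 0.05, and DESeq2 called Krt4 in each medium. With Cdx2-sgRNA the regions differed in Krt7, Krt80 and Krt4 in WENR-minus, 3 of 10 members with 34.6% of all genes called, and in these and Krt20 in WENR-plus, 4 of 10 members with 17% of all genes called. All were higher in proximal organoids. The region comparisons share libraries with the guide comparisons and are not independent of them.

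**Figure D2:**
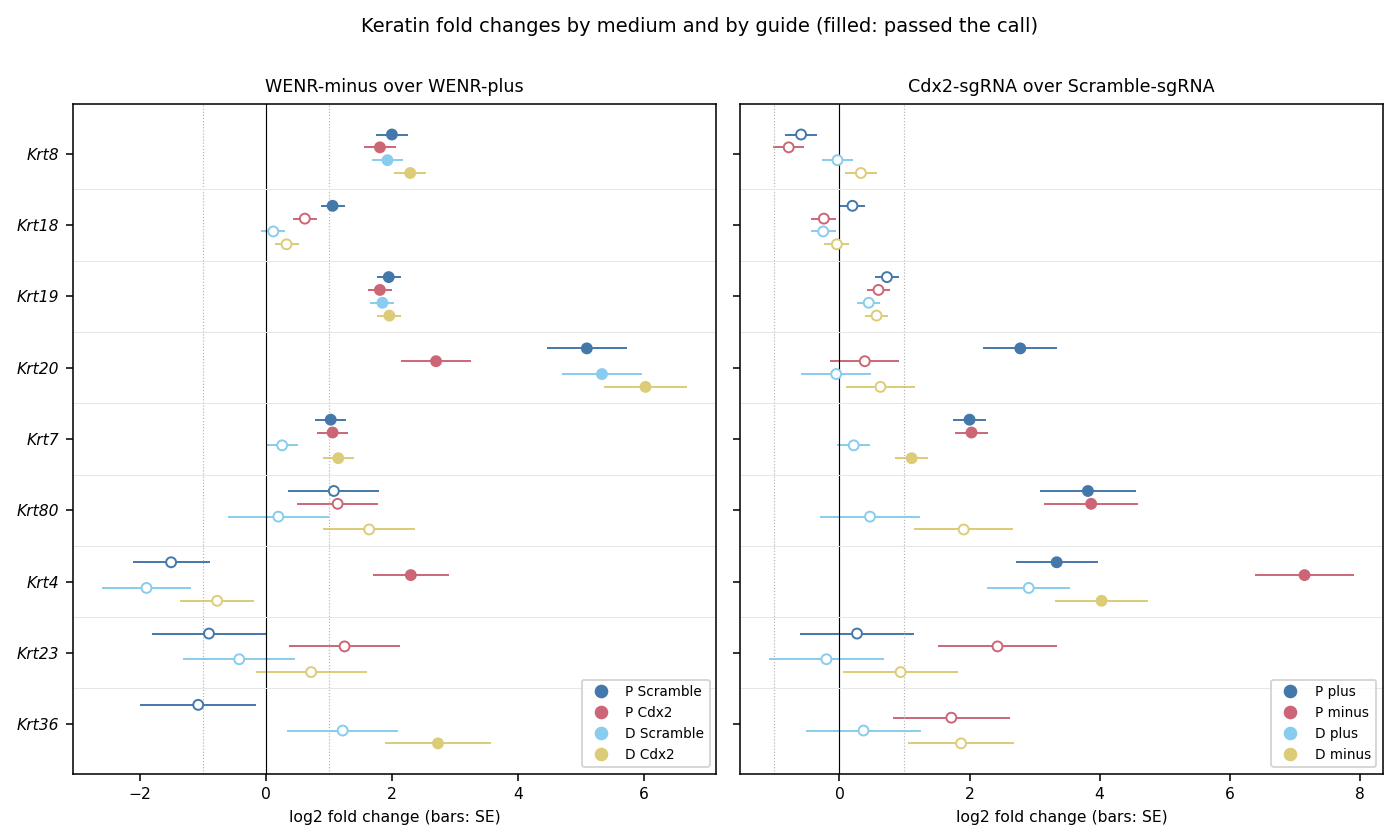
Log2 fold changes (points) with their SE (bars) for the 9 tested keratins, by medium in each of 4 lines (left) and by guide in each region and medium (right); filled points passed the call, P is proximal and D is distal. Krt20 moved furthest with the medium, with 2.70 to 6.02, and Krt4 furthest with the guide, with 7.15 in proximal organoids in WENR-minus; Krt36 is not drawn where a group held at most 3 reads per library.

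Krt8, the major type II keratin of simple epithelium, was at 1183 and 1383 CPM in proximal Scramble-sgRNA organoids in WENR-plus and at 5397 and 4838 CPM in WENR-minus. In proximal Cdx2-sgRNA organoids it went from 1106 and 603 CPM to 2991 and 2990 CPM. The distal levels were 1207 and 1046 CPM against 4753 and 3855 CPM with Scramble-sgRNA, and 1079 and 1134 CPM against 5334 and 5509 CPM with Cdx2-sgRNA. In every line both WENR-minus libraries lay above both WENR-plus libraries. The log2 fold change with the medium was 2.00 (SE 0.25, BH-adjusted p = 0.000432) in proximal Scramble-sgRNA, 1.81 (SE 0.25, BH-adjusted p = 0.00199) in proximal Cdx2-sgRNA, 1.93 (SE 0.25, BH-adjusted p = 0.000185) in distal Scramble-sgRNA and 2.29 (SE 0.25, BH-adjusted p = 3.57e-05) in distal Cdx2-sgRNA organoids.

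Proximal Cdx2-sgRNA organoids held the lowest Krt8 level of each medium by group mean, with 855 CPM in WENR-plus and 2991 CPM in WENR-minus. Against Scramble-sgRNA the log2 difference in WENR-minus was −0.78 (SE 0.24, BH-adjusted p = 0.0323), which is within the fold change limit of the call. In distal organoids it was 0.33 (SE 0.24, BH-adjusted p = 0.420). The difference between these effects was −1.11 (SE 0.34, BH-adjusted p = 0.0471), and Krt8 was the only member called lower in any of the 17 contrasts of the fit without a block. It was 1 of 2 members called in this contrast, in which 14.3% of all genes were called. This call was lost whichever of the 8 libraries was left out, with values of −1.27 to −0.97 and BH-adjusted p of 0.0586 to 0.166, and with length-scaled counts (−1.09, BH-adjusted p = 0.0522) or only the libraries compared (−1.06, BH-adjusted p = 0.0550).

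Krt18, the type I partner of Krt8, varied least. Its lowest level in a library was 376 and its highest 1091 CPM. In proximal Scramble-sgRNA organoids it went from 450 and 543 CPM in WENR-plus to 1091 and 979 CPM in WENR-minus, a log2 fold change of 1.06 (SE 0.19, BH-adjusted p = 0.00214). In proximal Cdx2-sgRNA organoids it went from 612 and 528 CPM to 869 and 883 CPM, which did not pass the call (0.62, SE 0.19, BH-adjusted p = 0.0504). In distal organoids the levels were 449 and 508 against 523 and 520 CPM with Scramble-sgRNA, and 376 and 431 against 605 and 409 CPM with Cdx2-sgRNA. The distal log2 fold changes were 0.12 (SE 0.19, BH-adjusted p = 0.635) and 0.33 (SE 0.19, BH-adjusted p = 0.174). The difference of the medium's effect between the regions in Scramble-sgRNA organoids was 0.94 (SE 0.27, BH-adjusted p = 0.272). The proximal call was lost without replicate 1 of either medium, where the log2 fold change was 0.98 to 1.00, and with at least 10 counts asked of every library, where it was 0.98.

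Krt19, a type I keratin without a tail domain, had the highest TPM when all transcripts were counted. Its CPM ranked all 8 groups without overlap between neighbours. From the top, the proximal Cdx2-sgRNA libraries in WENR-minus lay at 6826 and 6178, distal Cdx2-sgRNA at 5174 and 5151, proximal Scramble-sgRNA at 4119 and 4489, and distal Scramble-sgRNA at 3732 and 3207 CPM. In WENR-plus the same order of lines held, with 2175 and 1542, then 1294 and 1351, then 1080 and 1154, then 1041 and 890 CPM. The log2 fold change with the medium was 1.95 (SE 0.19, BH-adjusted p = 0.000186) in proximal Scramble-sgRNA organoids and lay between 1.81 and 1.96 in all 4 lines. The differences with Cdx2-sgRNA were smaller, at 0.60 (SE 0.18, BH-adjusted p = 0.0300) and 0.73 (SE 0.18, BH-adjusted p = 0.0146) in proximal organoids in WENR-minus and WENR-plus. They were 0.57 (SE 0.18, BH-adjusted p = 0.0730) and 0.45 (SE 0.18, BH-adjusted p = 0.698) in distal organoids, and none reached the fold change limit.

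Krt20, the keratin of differentiated crypt-top cells, was among the members with the widest range, from 20.3 to 2206 CPM. In WENR-plus it was at 25.9 and 20.3 CPM in proximal Scramble-sgRNA, 36.9 and 21.1 CPM in distal Scramble-sgRNA and 25.1 and 30.8 CPM in distal Cdx2-sgRNA organoids. Proximal Cdx2-sgRNA organoids stood above these, at 104 and 213 CPM. In WENR-minus the levels were 995 and 580, 1430 and 904, 1412 and 2206, and, in proximal Cdx2-sgRNA organoids, 489 and 1572 CPM. All libraries in WENR-minus lay above all libraries in WENR-plus. Among the 4 groups in WENR-minus the ranges overlapped, except that distal Cdx2-sgRNA organoids lay above proximal Scramble-sgRNA organoids.

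The medium's effect on Krt20 was 5.09 (SE 0.63, BH-adjusted p = 0.000401) in proximal Scramble-sgRNA and 5.33 (SE 0.63, BH-adjusted p = 0.000122) in distal Scramble-sgRNA organoids on the log2 scale. It was 6.02 (SE 0.66, BH-adjusted p = 3.24e-05) in distal Cdx2-sgRNA organoids. In proximal Cdx2-sgRNA organoids it was 2.70 (SE 0.56, BH-adjusted p = 0.0113), which was lost without replicate 1 in WENR-plus or replicate 2 in WENR-minus (1.62 to 2.28, BH-adjusted p = 0.0570 to 0.0749). The difference of the medium's effect between the guides in proximal organoids was −2.39 (SE 0.76, BH-adjusted p = 0.0975), and with the culture as a block it was −2.49 (SE 0.27, BH-adjusted p = 0.00120). Krt20 was higher with Cdx2-sgRNA in proximal organoids in WENR-plus by 2.78 (SE 0.57, BH-adjusted p = 0.00515). That call was lost without replicate 2 of the Scramble-sgRNA group, where the value was 2.64. In WENR-minus the difference was 0.39 (SE 0.53, BH-adjusted p = 0.610). In distal organoids it was 0.63 (SE 0.53, BH-adjusted p = 0.489) in WENR-minus and −0.05 (SE 0.54) in WENR-plus. The regional difference of the guide effect in WENR-plus was 2.83 (SE 0.77, BH-adjusted p = 0.0561). It passed in DESeq2 (2.87, BH-adjusted p = 0.00202), with no filter on low counts and with only the libraries compared (2.88, BH-adjusted p = 0.0372).

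Other differentiation markers did not follow Krt20 in proximal Cdx2-sgRNA organoids. Muc2, the goblet cell mucin, Fabp2, a fatty acid binding protein of enterocytes, and Car1, a carbonic anhydrase of colonocytes, summed to 7421 and 10039 CPM in proximal Scramble-sgRNA organoids in WENR-minus. In proximal Cdx2-sgRNA organoids they summed to no more than 27.1 CPM in any of the 4 libraries. The mean Krt20 level in WENR-minus was 788 CPM in the former and 1031 CPM in the latter.

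Krt7, a type II keratin of simple and glandular epithelium, was highest in proximal Cdx2-sgRNA organoids. It lay there at 650 and 785 CPM in WENR-plus and at 1324 and 1668 CPM in WENR-minus, above all other libraries. Proximal Scramble-sgRNA organoids held 181 and 178 CPM in WENR-plus and 390 and 342 CPM in WENR-minus. Distal levels were 135 and 174 against 133 and 237 CPM with Scramble-sgRNA, and 161 and 199 against 377 and 420 CPM with Cdx2-sgRNA. The distal groups overlapped except for Cdx2-sgRNA organoids in WENR-minus, which stood above the rest.

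With Cdx2-sgRNA, Krt7 rose in proximal organoids by 2.03 (SE 0.26, BH-adjusted p = 0.000184) in WENR-minus and 2.00 (SE 0.26, BH-adjusted p = 0.000345) in WENR-plus on the log2 scale. In distal organoids the difference was 1.11 (SE 0.25, BH-adjusted p = 0.0220) in WENR-minus and 0.22 (SE 0.25, BH-adjusted p = 0.974) in WENR-plus. The effect differed between the regions in WENR-plus by 1.78 (SE 0.36, BH-adjusted p = 0.0143), where Krt7 was the 1 member called and 4.98% of all genes were called, and in WENR-minus the difference was 0.93 (SE 0.35, BH-adjusted p = 0.0937). The medium raised Krt7 by 1.03 (SE 0.25, BH-adjusted p = 0.0110), 1.06 (SE 0.25, BH-adjusted p = 0.0189) and 1.15 (SE 0.25, BH-adjusted p = 0.00294) in proximal Scramble-sgRNA, proximal Cdx2-sgRNA and distal Cdx2-sgRNA organoids, and by 0.26 (SE 0.25, BH-adjusted p = 0.430) in distal Scramble-sgRNA organoids, which did not pass. The proximal Scramble-sgRNA call was lost without replicate 1 of either medium or replicate 2 in WENR-plus (0.95 to 1.09, BH-adjusted p = 0.0571 to 0.0717). With at least 10 counts asked of every library neither proximal value exceeded the fold change limit, at 0.94 and 1.00, and with only the libraries compared the proximal Cdx2-sgRNA call was lost (1.06, BH-adjusted p = 0.137), as was the distal guide call in WENR-minus (1.08, BH-adjusted p = 0.0788). The proximal Cdx2-sgRNA call was lost without either WENR-plus library or replicate 2 in WENR-minus (0.88 to 1.20, BH-adjusted p = 0.0722 to 0.104), and the distal guide call in WENR-minus when replicate 1 of Scramble-sgRNA or either Cdx2-sgRNA library was left out (0.75 to 1.18, BH-adjusted p = 0.0633 to 0.123). The regional difference in WENR-plus was lost without either proximal Scramble-sgRNA library, distal Scramble-sgRNA replicate 2 or distal Cdx2-sgRNA replicate 1 (1.58 to 1.82, BH-adjusted p = 0.0615 to 0.0775).

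Krt80 was low in most groups and followed Krt7. It lay at 16.5 and 22.9 CPM in proximal Cdx2-sgRNA organoids in WENR-plus and at 42.8 and 44.1 CPM in WENR-minus. No other library exceeded 5.27 CPM, and the lowest had 0.150 CPM from 3 reads. Krt80 was higher with Cdx2-sgRNA in proximal organoids by 3.87 (SE 0.72, BH-adjusted p = 0.00210) in WENR-minus and 3.82 (SE 0.74, BH-adjusted p = 0.00375) in WENR-plus. In distal organoids the differences were 1.91 (SE 0.76, BH-adjusted p = 0.139) and 0.47 (SE 0.77, BH-adjusted p = 0.981). The regional difference of this effect did not pass, at 1.96 (SE 1.02, BH-adjusted p = 0.209) and 3.35 (SE 1.05, BH-adjusted p = 0.0912). In DESeq2 only the WENR-plus value passed (3.41, BH-adjusted p = 0.0151), and with no filter on low counts both did. With the medium Krt80 did not pass in any line, at 0.20 to 1.64. With the culture as a block it passed in proximal Scramble-sgRNA (1.08, SE 0.32, BH-adjusted p = 0.0224), proximal Cdx2-sgRNA (1.16, SE 0.24, BH-adjusted p = 0.00728) and distal Cdx2-sgRNA organoids (1.64, SE 0.33, BH-adjusted p = 0.00201). With no filter on low counts it passed in these same 3 lines. In distal Cdx2-sgRNA organoids it also passed in DESeq2 (1.72, BH-adjusted p = 0.0410) and with only the libraries compared (1.62, BH-adjusted p = 0.0438), and in distal Scramble-sgRNA organoids without replicate 2 in WENR-plus (2.86, BH-adjusted p = 0.0391).

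Krt4, the keratin of stratified epithelium, had the widest range of the tested members, 908-fold from 1.62 to 1468 CPM. Proximal Cdx2-sgRNA organoids held 257 and 339 CPM with the growth factors and 1468 and 1465 CPM without them. Proximal Scramble-sgRNA organoids held 41.5 and 17.1 CPM with them and 12.9 and 7.87 CPM without. In the same order, distal Cdx2-sgRNA organoids held 50.3 and 75.6 CPM, then 19.5 and 54.3 CPM, and distal Scramble-sgRNA organoids held 3.80 and 13 CPM, then 1.62 and 2.87 CPM. In each region and medium both Cdx2-sgRNA libraries lay above both Scramble-sgRNA libraries.

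With Cdx2-sgRNA, Krt4 rose in proximal organoids by 7.15 (SE 0.76, BH-adjusted p = 5.70e-05) in WENR-minus, a 142-fold change, and by 3.34 (SE 0.63, BH-adjusted p = 0.00345) in WENR-plus. In distal organoids it rose by 4.03 (SE 0.72, BH-adjusted p = 0.00852) in WENR-minus, a call lost without either Scramble-sgRNA library or without replicate 2 of Cdx2-sgRNA (3.10 to 4.51, BH-adjusted p = 0.0556 to 0.0704). In distal organoids in WENR-plus the difference was 2.91 (SE 0.64, BH-adjusted p = 0.115). The proximal effect exceeded the distal one in WENR-minus by 3.12 (SE 0.94, BH-adjusted p = 0.0416), which was lost when any library other than distal Cdx2-sgRNA replicate 2 was left out (2.55 to 3.54, BH-adjusted p = 0.0584 to 0.201). In WENR-plus the regional difference was 0.43 (SE 0.84, BH-adjusted p = 0.821).

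The medium changed Krt4 differently in the proximal lines. It rose in proximal Cdx2-sgRNA organoids by 2.30 (SE 0.60, BH-adjusted p = 0.0296), a call lost without any 1 of the 4 libraries (2.12 to 2.52, BH-adjusted p = 0.0741 to 0.118). In proximal and distal Scramble-sgRNA organoids the values were −1.50 (SE 0.61, BH-adjusted p = 0.0871) and −1.89 (SE 0.70, BH-adjusted p = 0.0508). With the culture as a block these were −1.42 (SE 0.25, BH-adjusted p = 0.00171) and −1.82 (SE 0.34, BH-adjusted p = 0.00138) and passed, as they did in DESeq2 (−1.49 and −1.84, BH-adjusted p = 0.0340 and 0.00765). The difference of the medium's effect between the guides was 3.80 (SE 0.86, BH-adjusted p = 0.0370) in proximal organoids, where Krt4 was the 1 member called and 3.6% of all genes were called, and 1.12 (SE 0.91, BH-adjusted p = 0.765) in distal organoids. The proximal difference was lost whichever of the 8 libraries was left out (2.98 to 4.28, BH-adjusted p = 0.0535 to 0.127). In distal organoids edgeR called 0 members and 0% of genes for this difference, with 1 member (Krt7) and 1457 genes at an unadjusted p under 0.05, and DESeq2 called 0 members and 120 genes.

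**Figure D3:**
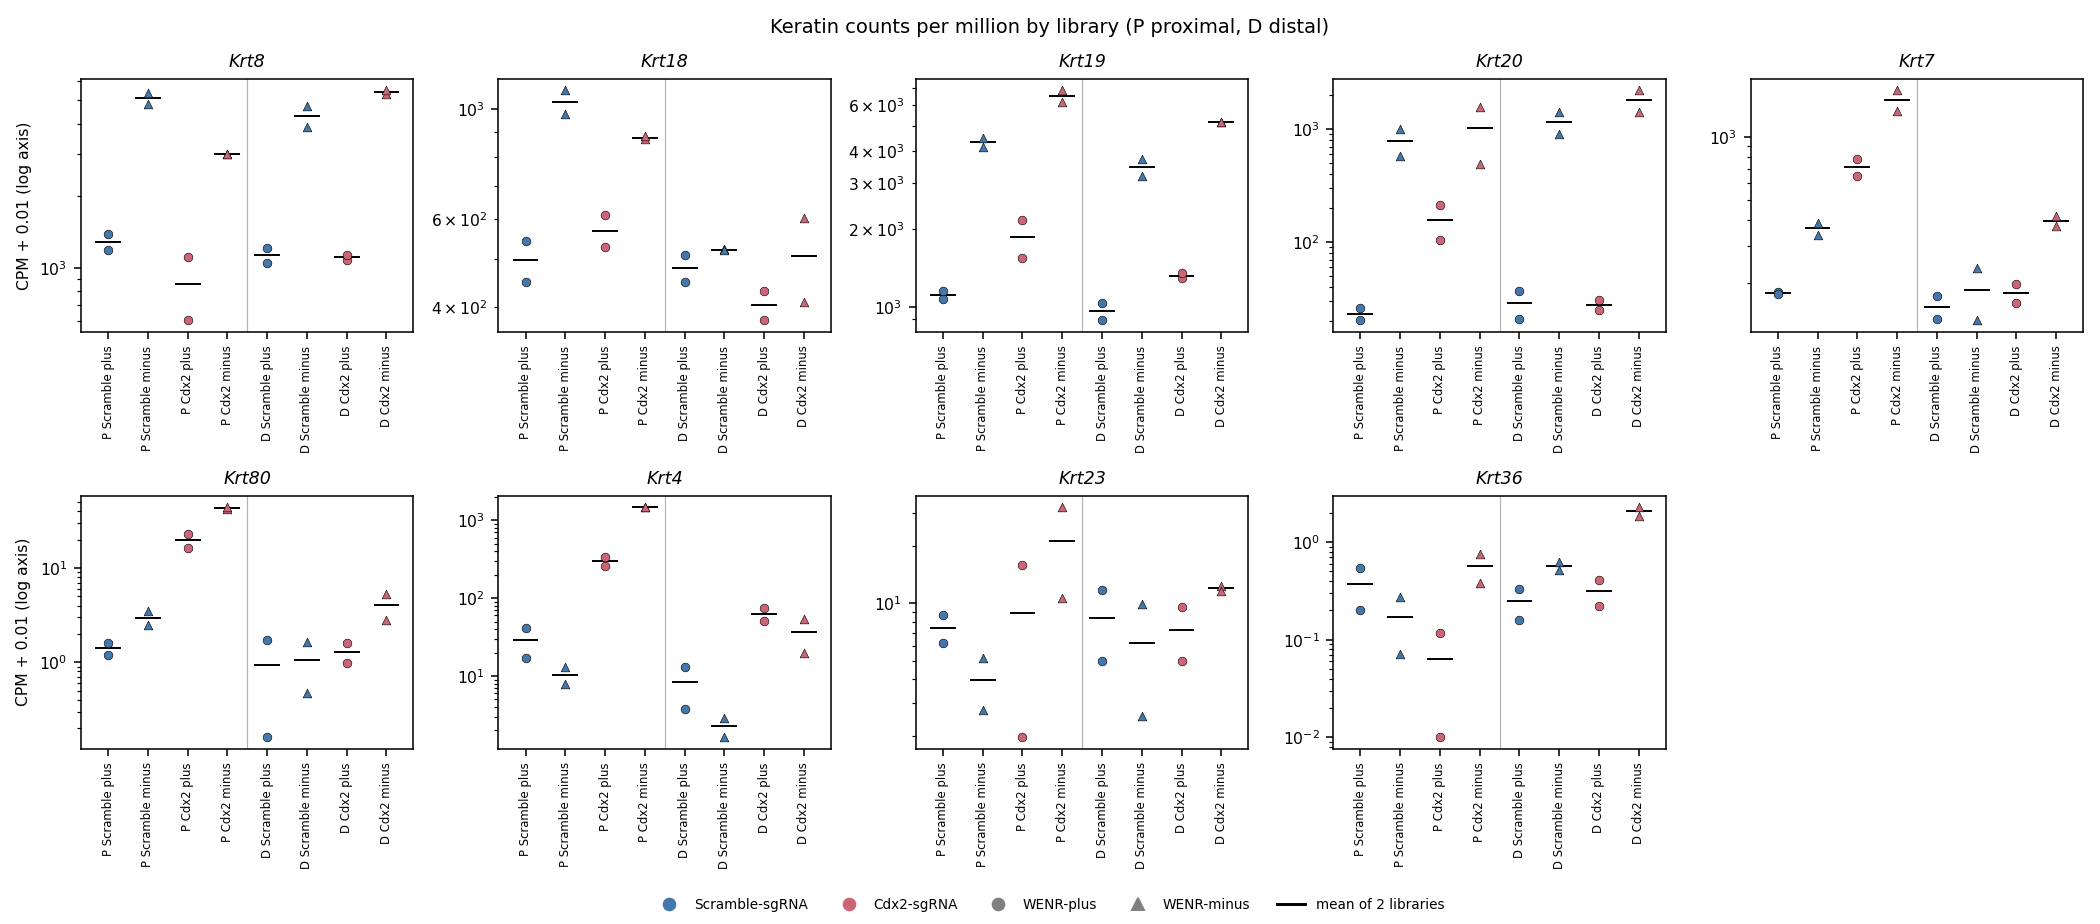
CPM plus 0.01 of the 9 tested keratins in each of 16 libraries, on log axes; points are libraries, lines are means of 2, P is proximal and D is distal. Krt8, Krt19 and Krt20 are higher in every WENR-minus group than in the WENR-plus group of the same line, and Krt7, Krt80 and Krt4 are highest in proximal Cdx2-sgRNA organoids.

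Krt23 and Krt36 were measured less firmly. Krt23 lay between 1.96 and 32.1 CPM, and its replicates were far apart, for example 15.9 and 1.96 CPM in proximal Cdx2-sgRNA organoids in WENR-plus and 32.1 and 10.7 CPM in WENR-minus. None of the 7 pairs of neighbours in its order of group means stood apart. With Cdx2-sgRNA in proximal organoids in WENR-minus it differed by 2.43 (SE 0.92, BH-adjusted p = 0.0660), from 2.73 and 5.16 CPM with Scramble-sgRNA. That difference passed in DESeq2 (2.49, BH-adjusted p = 0.0146), with no filter on low counts (2.45, BH-adjusted p = 1.25e-10), with at least 10 counts asked of every library (2.47, BH-adjusted p = 0.0489) and with only the libraries compared (2.47, BH-adjusted p = 0.0396), and BH-adjusted p was 0.0581 to 0.309 with single libraries left out. With the culture as a block it rose with the medium in proximal Cdx2-sgRNA organoids by 1.61 (SE 0.36, BH-adjusted p = 0.00994), whereas without the block the value was 1.25 (SE 0.88, BH-adjusted p = 0.388). The medium's effect on it differed between the guides in proximal organoids by 2.55 (SE 0.52, BH-adjusted p = 0.0111) with the block and by 2.15 (SE 1.25, BH-adjusted p = 0.358) without it.

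Krt36 held at most 27 reads in a library. Distal Cdx2-sgRNA organoids in WENR-minus were highest, with 1.86 and 2.26 CPM from 22 and 27 reads, and no other library exceeded 0.740 CPM. It rose there over WENR-plus, with 7 and 4 reads, by 2.73 (SE 0.84, BH-adjusted p = 0.0198), a call lost without either WENR-plus library or without replicate 2 in WENR-minus (2.37 to 3.30, BH-adjusted p = 0.0545 to 0.133). Krt36 was above the filter on low counts in 4 libraries, 2 of them in this group, and was not tested with at least 10 counts asked of every library. In proximal Cdx2-sgRNA organoids it went from 0 and 2 reads in WENR-plus to 5 and 14 reads in WENR-minus, at least 3.34-fold higher with 3 reads per library as the floor, which passed only with the culture as a block (BH-adjusted p = 0.0396) or the replicate number as a block (BH-adjusted p = 0.0493).

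Between the regions of Scramble-sgRNA organoids no member passed the call. Krt18 (0.99, SE 0.19, BH-adjusted p = 0.00911) and Krt7 (0.98, SE 0.25, BH-adjusted p = 0.0314) in WENR-minus lay just within the fold change limit, with higher levels in proximal organoids. Krt7 passed it with the replicate number as a block (1.02, SE 0.20, BH-adjusted p = 0.0106), with length-scaled counts (1.01, BH-adjusted p = 0.0484) and without distal replicate 2 (1.46, BH-adjusted p = 0.0132). Krt18 passed without proximal replicate 2 (1.06, BH-adjusted p = 0.0372), and with at least 10 counts asked of every library both passed (1.01 for Krt18 and 1.00 for Krt7, BH-adjusted p = 0.00633 and 0.0243). Krt4 differed by 2.20 (SE 0.70, BH-adjusted p = 0.0723). The region effect did not differ between the media for any member in edgeR, which called 0.0719% of all genes there and 0 members, with 1 member (Krt18) at an unadjusted p under 0.05 and 0 members by DESeq2. With Cdx2-sgRNA the proximal excess was 5.31 (SE 0.70, BH-adjusted p = 0.000120) for Krt4, 3.43 (SE 0.71, BH-adjusted p = 0.00220) for Krt80 and 1.91 (SE 0.26, BH-adjusted p = 0.000146) for Krt7 in WENR-minus. In WENR-plus it was 2.24 (SE 0.61, BH-adjusted p = 0.0178) for Krt4 and 2.50 (SE 0.56, BH-adjusted p = 0.00729) for Krt20, and both depended on single libraries. The Krt4 call was lost without either distal library or proximal replicate 2 (2.02 to 2.57, BH-adjusted p of at least 0.0607), and the Krt20 call without distal replicate 1 or proximal replicate 2 (1.89 to 2.41, BH-adjusted p = 0.0548 to 0.0630).

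Across the 16 libraries the members fell into patterns, described here by Pearson's r of log2 CPM with no test, since libraries of a group share their condition. Krt8, Krt19 and Krt20 went together, with r of 0.84 for Krt8 with Krt19, 0.84 for Krt8 with Krt20 and 0.93 for Krt19 with Krt20. Krt7, Krt80 and Krt4 went together, with r of 0.97 for Krt7 with Krt80, 0.87 for Krt80 with Krt4 and 0.83 for Krt7 with Krt4. Between the patterns r was lower, from −0.27 for Krt8 with Krt4 to 0.63 for Krt7 with Krt19, with 0.51 for Krt7 with Krt20 and 0.16 for Krt7 with Krt8. Krt8 and Krt18, which pair in the filament, had an r of 0.49. Among all 15289 genes tested, the gene most like Krt7 was Krt80 (r = 0.967) and the gene most like Krt80 was Krt7. The next were Acaa1b (0.949) and Gm43289 (0.947) for Krt7, and Gm43289 (0.952) and Gbp8 (0.944) for Krt80. The genes most like Krt20 were Cyp3a13 (0.982), Lgals3 (0.980) and Gm3336 (0.971), those most like Krt19 were Tspan15 (0.984), Dgat2 (0.977) and Dusp10 (0.972), and those most like Krt8 were Mboat1 (0.986) and Nol4l (0.983). For Krt4 they were Ttc9 (0.954), 2610203C22Rik (0.949) and Dstyk (0.946), and for Krt18 they were Nfe2l2 (0.893) and Sptssb (0.865). For Krt23 they were Arf2 (0.865), Ltbp2 (0.824) and Klf7 (0.783), and for Krt36 Baz2b (0.907), Fam102a (0.901) and Son (0.885).

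Of the 44 other keratin genes, 23 had at most 3 reads in every library, and 14 of these had no read. Of the others, 9 reached a group mean of 1 CPM and were tested: Krt84, Krt13, Krt14, Krt78, Krt79, Krt6a, Krt83, Krt39 and Krt87. Krt84, a type II keratin of the hair family, was at 92.0 and 174 CPM in distal Cdx2-sgRNA organoids in WENR-minus, at 23.9 and 18.2 CPM in distal Scramble-sgRNA and 16.1 and 2.92 CPM in proximal Scramble-sgRNA organoids in WENR-minus. It was at no more than 0.159 CPM in the proximal Cdx2-sgRNA libraries. It rose with the medium in both Scramble-sgRNA lines and in distal Cdx2-sgRNA organoids (5.19, SE 0.78, BH-adjusted p = 0.000243), and with Cdx2-sgRNA in WENR-minus it was higher in distal (2.66, SE 0.68, BH-adjusted p = 0.0336) and at least 49.9-fold lower in proximal organoids (BH-adjusted p = 0.00173).

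Keratins of stratified epithelium were seen beside Krt4. Krt14, a basal cell keratin, lay at 57.5 and 11 CPM in proximal Cdx2-sgRNA organoids in WENR-minus and at 4.23 and 4.18 CPM in distal ones, beside no more than 0.248 CPM in Scramble-sgRNA libraries in WENR-minus. Its difference with Cdx2-sgRNA in proximal organoids in WENR-minus was 7.58 (SE 1.35, BH-adjusted p = 0.00165). Krt78 was at 6.38 and 8.41 CPM and Krt79 at 7.05 and 8.46 CPM in proximal Cdx2-sgRNA organoids in WENR-minus, with differences of 5.16 (SE 0.95, BH-adjusted p = 0.00246) and 3.94 (SE 0.91, BH-adjusted p = 0.00748). Krt78 and Krt79 reached the mean of 1 CPM asked for naming in this group alone, so these differences only describe it. Krt13 was highest in distal Cdx2-sgRNA organoids in WENR-minus, at 6.35 and 5.60 CPM, and Krt6a reached no more than 1.32 CPM. Krt83 was called higher with Cdx2-sgRNA in proximal organoids in WENR-plus, but its level was 97.5 CPM in replicate 2 and 0.754 CPM in replicate 1, so that 1 library sets the value, and it passed the filter on low counts only through this group. Krt39 and Krt87 had group means of at most 1.85 and 3.37 CPM.

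**Figure D4:**
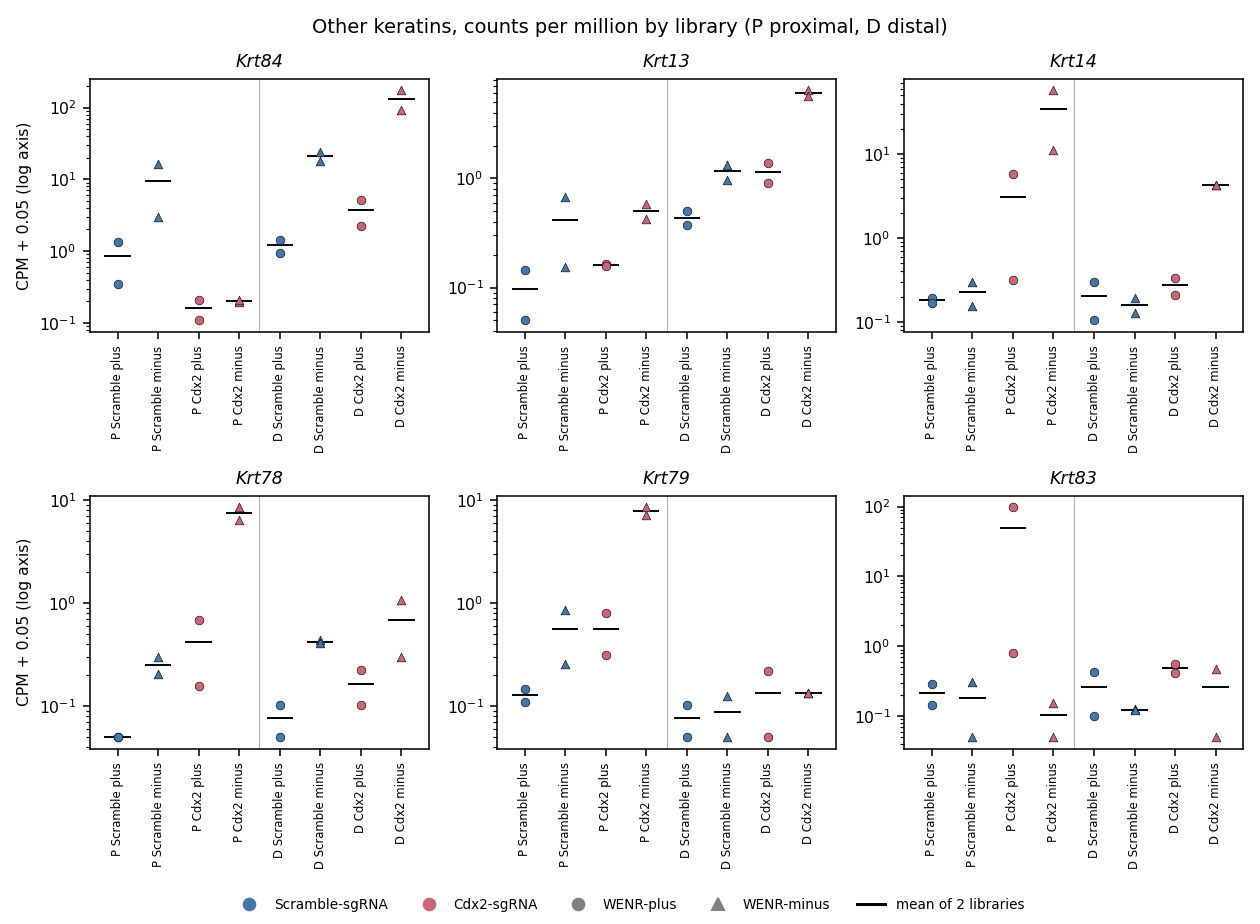
CPM plus 0.05 of 6 of the 9 other keratins that were tested, in each of 16 libraries, on log axes; points are libraries, lines are means of 2, P is proximal and D is distal. Krt84 and Krt13 are highest in distal Cdx2-sgRNA organoids in WENR-minus, Krt14, Krt78 and Krt79 in proximal ones, and Krt83 stands out in a single library at 97.5 CPM.

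Keratin filaments are anchored at desmosomes and hemidesmosomes by linker proteins. A list of 14 keratin filament partners, which also holds proteins other than linkers, such as Sfn, was read beside the keratins. With withdrawal of the growth factors 8 rose and 1, Pkp1, fell in proximal Scramble-sgRNA organoids, with 17% of all genes called, and 5 rose in proximal Cdx2-sgRNA organoids, with 6.4% of all genes called. In distal organoids 8 rose and 1, Tchp, fell with Scramble-sgRNA, with 26.4% of all genes called, and 10 rose and 1, Pkp1, fell with Cdx2-sgRNA, with 33.1% of all genes called. The medians in these lines were 1.25, 0.95, 1.29 and 1.74 on the log2 scale. This list too was chosen with earlier results known, so its counts and medians are description only. In distal Cdx2-sgRNA organoids the largest rises were those of the cross-linkers Evpl (3.50, SE 0.31, BH-adjusted p = 1.10e-05), Plec (2.86, SE 0.29, BH-adjusted p = 2.05e-05), Dst (2.57, SE 0.31, BH-adjusted p = 6.22e-05) and the desmosomal Dsp (2.11, SE 0.29, BH-adjusted p = 0.000142), and of Sfn, a 14-3-3 protein that binds keratins (2.68, SE 0.36, BH-adjusted p = 0.000122). Jup, Plec, Dst and Fam83h rose in all 4 lines, and Dsp, Sfn and the desmosomal Pkp3 in all but proximal Cdx2-sgRNA organoids. Evpl rose in all but proximal Scramble-sgRNA, Itgb4 in proximal Scramble-sgRNA and distal Cdx2-sgRNA, and Ppl in distal Cdx2-sgRNA organoids.

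With Cdx2-sgRNA the partners moved in both directions. In proximal organoids in WENR-minus, with 21.2% of all genes called, 3 rose, Pkp1 (2.49, SE 0.40, BH-adjusted p = 0.000811), Ppl (1.27, SE 0.34, BH-adjusted p = 0.0148) and Evpl, and 4 fell, Sfn (−1.92, SE 0.35, BH-adjusted p = 0.00202), Dst (−1.63, SE 0.30, BH-adjusted p = 0.00207), Eppk1 (−1.45, SE 0.27, BH-adjusted p = 0.00204) and Plec. In proximal organoids in WENR-plus, with 15.9% of all genes called, 2 fell, Eppk1 (−1.87, SE 0.27, BH-adjusted p = 0.000698) and Dst (−1.28, SE 0.30, BH-adjusted p = 0.0105). In distal organoids 4 rose in WENR-minus, with 5.25% of all genes called, Evpl (1.53, SE 0.28, BH-adjusted p = 0.0103), Plec, Ppl and Itgb4, and in WENR-plus, with 0.262% of all genes called, edgeR called none of them, and 0 had an unadjusted p under 0.05.

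Of 7 other intermediate filament genes, 5 were tested. The nuclear lamin Lmnb1 fell with the medium in both Scramble-sgRNA lines and in distal Cdx2-sgRNA organoids (−1.38, −1.91 and −2.38, SE 0.27, 0.27 and 0.28, BH-adjusted p = 0.00328, 0.000313 and 4.90e-05), and with Cdx2-sgRNA in proximal organoids in WENR-plus (−1.16, SE 0.27, BH-adjusted p = 0.00949). Lmna, the gene of the A-type lamins, rose with the medium in proximal Cdx2-sgRNA (1.15, SE 0.24, BH-adjusted p = 0.0113) and distal Cdx2-sgRNA organoids (1.07, SE 0.24, BH-adjusted p = 0.00316). Lmnb2 was lower with Cdx2-sgRNA in proximal organoids in WENR-minus (−1.20, SE 0.16, BH-adjusted p = 0.000271) and in WENR-plus (−1.74, SE 0.16, BH-adjusted p = 3.85e-05). Vim, the filament of mesenchymal cells, reached 10.8 CPM at most and was lower in proximal organoids with Cdx2-sgRNA in WENR-minus (−4.03, SE 0.84, BH-adjusted p = 0.00427) and at least 17.1-fold lower in WENR-plus (BH-adjusted p = 0.00497). Nes, a filament of progenitor cells, was higher with Cdx2-sgRNA in WENR-minus in proximal (4.24, SE 1.09, BH-adjusted p = 0.0128) and distal organoids (3.77, SE 1.06, BH-adjusted p = 0.0467).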

How the data were processed

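The authors quantified stranded total RNA libraries with Salmon 1.1.0 on GENCODE vM23, and each deposited table gives an estimated count and a TPM per transcript. Counts were summed per gene with GENCODE vM21 (139864 of 140748 transcripts matched, 0.257 to 0.509% of a library's counts unmatched) and rounded. In R 4.3.3, edgeR 4.0.16 kept 15289 genes by filterByExpr, scaled by TMM and fitted 1 coefficient per group to all 16 libraries (8 residual degrees of freedom). It then tested 17 contrasts by quasi-likelihood with Benjamini-Hochberg adjustment. The SE is the absolute log2 fold change over the square root of F. Where all libraries of a group held at most 3 reads, a bound with 3 reads per library replaces the fold change, also in differences between effects. CPM are scaled counts, and TPM were summed as deposited by the authors.

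The 10 keratins and the lists of markers, partners and filaments were chosen with earlier results of these data known. All 10 members are named, as are other keratins at a group mean of 1 CPM, the called partners or filaments of the medium and guide comparisons, with values for at most 5 each, the 3 genes most like each member, and Cdx2. The replicate number pairs both media of a culture, since deviations from the group mean correlated at 0.28 to 0.59 for these 4 pairs. Alternatives were RLE scaling, DESeq2 1.42.0, other filters, blocks, fewer libraries, length-scaled counts and each library left out. The test was checked on simulated counts. One gene named in the genotype label and some of the genes most like a member are not reported here.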

Additional observations from a re-analysis of the deposited data

Results flagged for a closer look

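Some effects differed between regions or guides when the difference itself was tested in edgeR. BH-adjusted p for the members was 0.0143 to 0.0471, and each of their calls was lost without certain single libraries, as given above. For the effect of Cdx2-sgRNA in WENR-minus, proximal minus distal, the differences in log2 fold change were −1.11 for Krt8 and 3.12 for Krt4, and at most −8.30 for Krt84 and 4.40 for Krt78 among the other keratins. Krt78 was named through proximal Cdx2-sgRNA organoids in WENR-minus alone, so its value only describes that group. The value for Krt84 is a bound, since proximal Cdx2-sgRNA libraries held at most 3 reads of it. Among the filament partners they were −1.31 for Dsp, 3.72 for Pkp1, −2.41 for Plec, −1.95 for Eppk1, −2.27 for Dst, −1.88 for Itgb4 and −2.06 for Sfn, and among the other filaments 1.23 for Lmnb1 and −1.30 for Lmnb2. For the same effect in WENR-plus they were 1.78 for Krt7, −1.92 for Eppk1, −1.65 for Lmnb2 and, as a bound for the same reason, at most −3.96 for Vim. For the effect of WENR-minus in proximal organoids, Cdx2-sgRNA minus Scramble-sgRNA, they were 3.80 for Krt4, 2.62 for Pkp1 and 1.81 for Lmnb1. The groups have 2 libraries each, so no single library was tested as standing apart from its group.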

How the results depend on the processing

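Of 38 calls of single keratins, 17 were kept under every alternative and without every single library. Another 4, all of Krt80, were kept wherever they were tested, but Krt80 was not tested with at least 10 counts asked of every library. No value changed direction past its threshold. These comparisons rest on 2 libraries per group, and Krt36 and Krt17 also had few reads, at most 27 and 4 in a library. Counts of keratins called moved by over 1.5 times as follows, and the cause was not tested unless the setting itself has fewer genes or libraries. With at least 10 counts asked of every library, 3 were called for the medium in proximal Scramble-sgRNA organoids (5 otherwise) and 2 between the regions of Scramble-sgRNA organoids in WENR-minus (0 otherwise). With only the libraries compared, 0 were called for the medium in proximal Cdx2-sgRNA organoids (5), 1 for the distal guide effect in WENR-minus (2), 1 between the regions with Scramble-sgRNA in WENR-minus (0), 1 and 2 for the regional difference of the guide effect in WENR-minus and WENR-plus (2 and 1), and 0 for the proximal guide difference of the medium's effect (1). Without a fold change limit, 5 were called for the proximal guide effect in WENR-minus (3), 2 between the regions with Scramble-sgRNA in WENR-minus (0) and 5 with Cdx2-sgRNA (3). DESeq2 called 1 for the distal guide effect in WENR-plus (0), 1 between the regions with Scramble-sgRNA in each medium (0), 3 for the regional difference of the guide effect in WENR-plus (1) and 2 for the proximal guide difference of the medium's effect (1). With no filter on low counts these were 1, 2 and 1, 3 and 3, and the regional difference of the guide effect in WENR-minus gave 4 (2). With length-scaled counts 1 was called between the regions with Scramble-sgRNA in WENR-minus (0), and 1 for the regional difference of the guide effect in WENR-minus (2).

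With the culture as a replicate block, 8 keratins were called for the medium in proximal Cdx2-sgRNA organoids (5), with 1546 of all genes called (978), and 3 for the proximal guide difference of the medium's effect (1), with 1596 of all genes (550). No keratin call was lost. Same-numbered deviations across regions and guides correlated at −0.059 to 0.189, beside 0.28 to 0.59 between the media of a culture. Of all 28 pairs of groups, both kinds together, 9 exceeded 0.1, with a median of 0.07. All groups came from 2 mice, but the labels do not say that a replicate number marks the same mouse across regions and guides. With that number as a block, 1 keratin was called between the regions with Scramble-sgRNA in WENR-minus (0).

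With each library left out in turn, the medium gave 3 to 5, 2 to 4, 3 to 4 and 4 to 5 keratins in proximal Scramble-sgRNA, proximal Cdx2-sgRNA, distal Scramble-sgRNA and distal Cdx2-sgRNA organoids. Over all genes these comparisons gave 1523 to 2596, 313 to 1211, 2984 to 3974 and 4266 to 4746 calls (2595, 978, 4039 and 5055 with all libraries). The guide gave 3 in proximal organoids in WENR-minus, 3 to 5 in WENR-plus, 0 to 1 in distal organoids in WENR-minus and 0 in WENR-plus, beside 2329 to 3077, 1511 to 2150, 131 to 576 and 14 to 28 of all genes (3239, 2427, 802 and 40). The regions gave 0 to 1 and 0 with Scramble-sgRNA in WENR-minus and WENR-plus, and 3 to 4 and 2 to 4 with Cdx2-sgRNA, beside 342 to 786, 80 to 138, 4284 to 5112 and 1586 to 2653 of all genes (929, 267, 5291 and 2595). The regional difference of the guide effect gave 0 to 1 in WENR-minus and 0 to 3 in WENR-plus, beside 1220 to 2178 and 360 to 805 of all genes (2180 and 762). The other differences gave 0 keratins, with 46 to 793 of all genes (550) for the proximal guide difference of the medium's effect.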
